A study of Rattus norvegicus with 20 samples.

Results

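The genes described here encode 78 G protein-coupled receptors for opioids, monoamines, acetylcholine, glutamate, GABA, purines, prostaglandin E2, proteases and neuropeptides. They were taken by symbol: every probe set that the platform's probe table assigns to 1 gene whose current symbol belongs to the Opr, Adra, Adrb, Drd, metabotropic Htr, Chrm, Hrh, Grm, Gabbr, Sstr, Tacr, Ntsr, Galr, Npy, Cck, Avpr, Bdkrb, P2ry, F2r or Ptger receptor families. This gave 113 probe sets for 78 of the 4736 genes on the array, and where a gene had several, the one with the highest average intensity across the 20 arrays stands for it. The rule uses symbols and average intensities, and that average includes the arrays compared below. The receptors were chosen with earlier results of these data known.

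The study compared rat dorsal root ganglia after 2 sciatic nerve injuries and after sham surgery, on 20 arrays in 8 groups, all from the ipsilateral side. Chronic constriction injury (CCI), in which ligatures are tied loosely around the nerve, is represented by 3 arrays at 14 days and 3 at 21 days. The Seltzer group, whose labels speak of transection surgery on the sciatic nerve and whose name stands for a partial nerve injury, has 2 arrays at 14 days, 3 at 21 days and 2 at 50 days. Sham-operated animals have the same numbers, 2 at 14 days, 3 at 21 days and 2 at 50 days. The labels give no strain, sex, age or spinal level, and they leave unsaid whether each array stands for its own animal or for a pool, so the p-values measure the spread between these samples, which may be technical.

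G protein-coupled receptors cross the membrane several times and pass the binding of a ligand on to a G protein. Receptors coupled to Gi/o, such as the opioid, alpha2 adrenergic, GABA-B and somatostatin receptors, lower cyclic AMP, close calcium channels and open potassium channels, and on the central terminals of sensory neurons they reduce transmitter release. Receptors coupled to Gq/11 or Gs, such as the bradykinin, protease-activated, tachykinin and several serotonin receptors, raise calcium or cyclic AMP, and in nociceptors many of them sensitise the ending to heat and pressure. Of the 78 genes, 39 encode mainly Gi/o, 28 mainly Gq/11 and 11 mainly Gs receptors.

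The deposited values are linear intensities, and 23.5% to 36.8% of them lay below 0 on each array. A value was called above background when it exceeded the 95th percentile of the sizes of the negative values on the same array. That level was 169 to 326 on 17 arrays, 499 on the CCI 21-day replicate 1 array, and 766 and 599 on the Seltzer 50-day replicate 1 and 2 arrays, and 12.8%, 8.92% and 11% of the probe sets on these 3 arrays were above it, against 16% to 25.8% on the others. Of 11 sensory neuron markers measured, 10 were above background on at least 9 of the 18 arrays outside the Seltzer 50-day group, and all 5 Schwann cell markers were. Satellite glia and macrophages each had 2 of 6 markers at that level, with Kcnj10, Slc1a3, Gja1, Itgam and Csf1r above background on none of the 18 arrays. Endothelial and smooth muscle markers had 0 of 7. The summed intensity of 11 skeletal muscle markers was higher after CCI than after sham at 14 days (11600 to 13200 against 5730 to 6540) and lower at 21 days (1730 to 2610 against 5530 to 6100), and at 50 days it was 4790 to 6200 after Seltzer surgery against 1750 to 2070 after sham. In whole ganglia, fewer cells of a type and less RNA per cell cannot be told apart.

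Few of the receptor genes were measurable on these arrays. Over the 18 arrays outside the Seltzer 50-day group, 5 of the 78 genes (6.41%) were above background on at least 9 arrays, against 24.3% of all 4736 genes. Another 9 were above background on 1 to 8 arrays, and 64 (82.1%) were above it on none, against 62.6% of all genes. By coupling class, 3 of 39 Gi/o, 2 of 28 Gq/11 and 0 of 11 Gs receptors reached 9 arrays. For 24 genes the median over the 18 arrays was itself below 0. The heat map of all 78 genes shows these levels array by array.

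**Figure D1:**
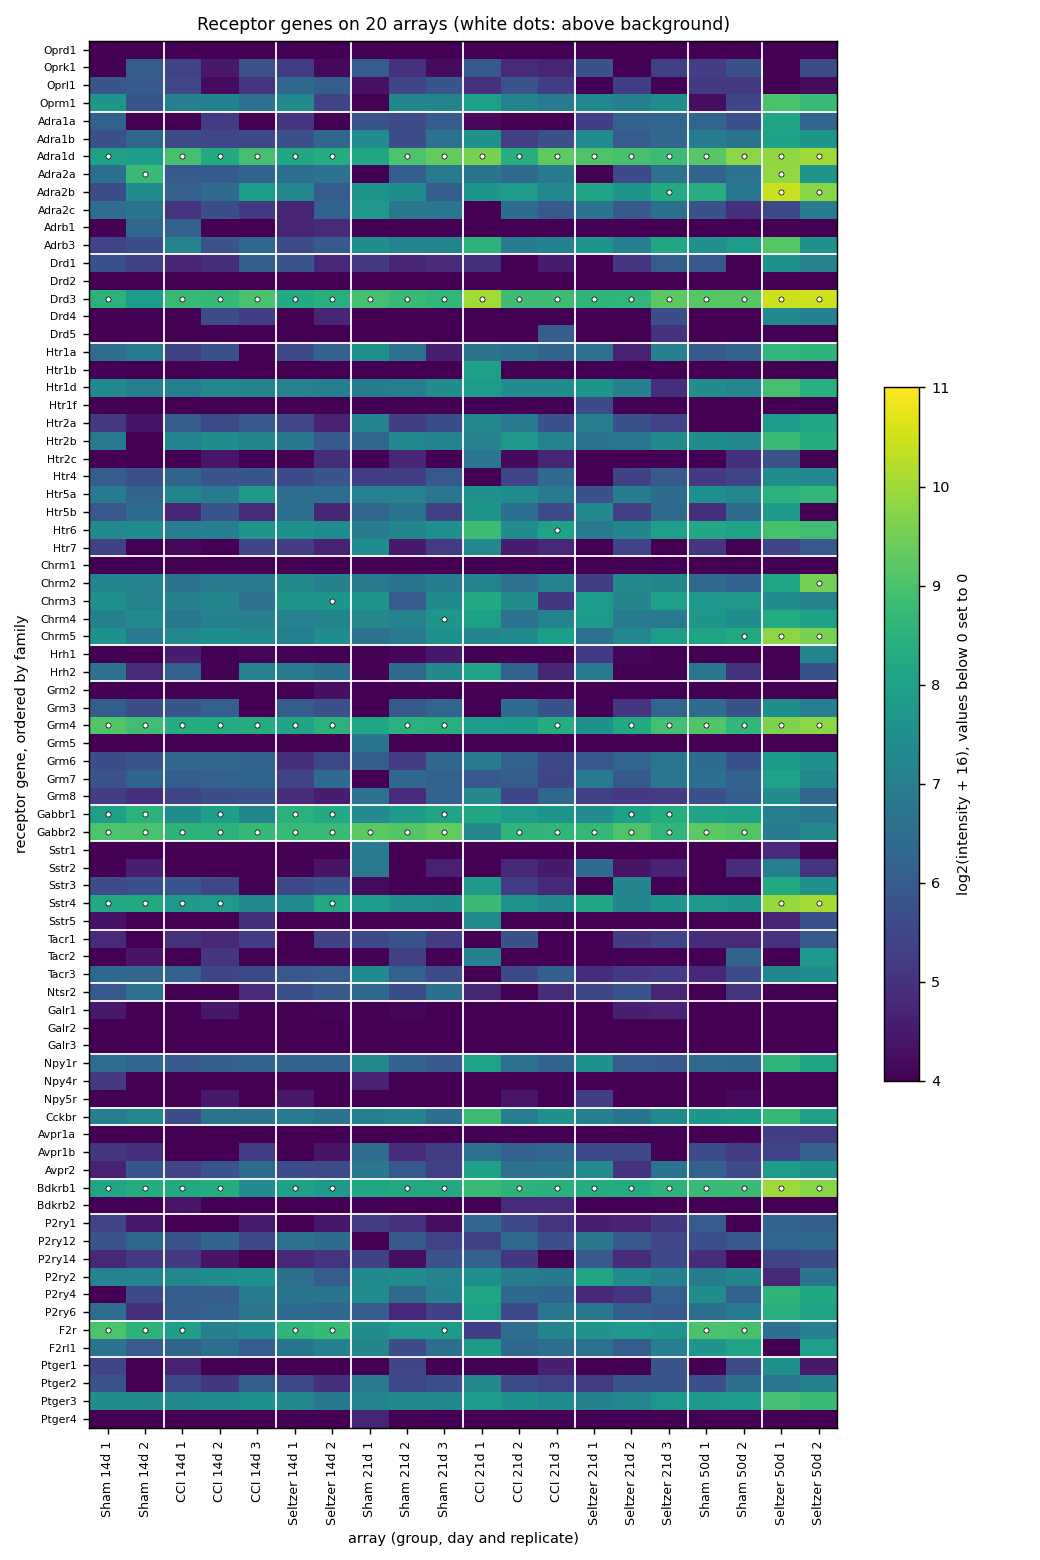
Heat map of the 78 receptor genes (rows, ordered by family) on the 20 arrays (columns, ordered by day and surgery); colour gives log2 of the deposited intensity plus 16, with values below 0 set to 0, and white dots mark values above the background level of that array. Most rows carry no dot on any of the 18 arrays outside the Seltzer 50-day group, and the 5 rows with dots on at least 9 of them are Drd3, Gabbr2, Adra1d, Bdkrb1 and Grm4.

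The 5 receptors measured on most arrays came from 5 different families, each read by its brightest probe set. Drd3, Gabbr2, Adra1d and Bdkrb1 also had further probe sets, and none of these was above background on any array. Detection of these receptors therefore rests on the brightest probe set alone. Grm4 had no further probe set. Drd3, the dopamine D3 receptor, was above background on 17 of the 18 arrays, and on those 18 its intensity ran from 216 on sham 14-day replicate 2 to 1038 on CCI 21-day replicate 1. Group means of Drd3 were 281 ± 92 (SD, n = 2) for sham and 432 ± 54.9 (n = 3) for CCI at 14 days, and 425 ± 49 (n = 3) for sham and 639 ± 345 (n = 3) for CCI at 21 days. The large spread of the last group comes from replicate 1, while the other 2 arrays read 439 and 441. Gabbr2, the GABA-B subunit that couples to the G protein, was above background on 17 arrays as well.

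Adra1d, the alpha1D adrenergic receptor, was above background on 16 of the 18 arrays, with group means from 232 ± 13.6 (n = 2) in sham at 14 days to 715 ± 207 (n = 2) in sham at 50 days. Its injured and sham arrays overlapped at 21 days, where sham read 263, 508 and 621 and CCI 752, 313 and 603. Bdkrb1, the bradykinin B1 receptor that is known for its induction in injured tissue, was above background on 15 arrays. Its means were 289 ± 28.4 (n = 2) in sham and 249 ± 86.9 (n = 3) in CCI at 14 days, and 278 ± 10.9 (n = 3) in sham and 367 ± 42.1 (n = 3) in CCI at 21 days. Grm4, the group III metabotropic glutamate receptor that restrains glutamate release, was above background on 14 arrays. It read 444 and 530 in sham at 14 days against 298 to 308 in CCI, and at 21 days 259.9 to 341 in sham against 209 to 308 in CCI, where the groups overlapped. The plot of 6 detected receptors gives every array of these genes, of which only Gabbr2 separates CCI from sham in the same direction at both days.

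**Figure D2:**
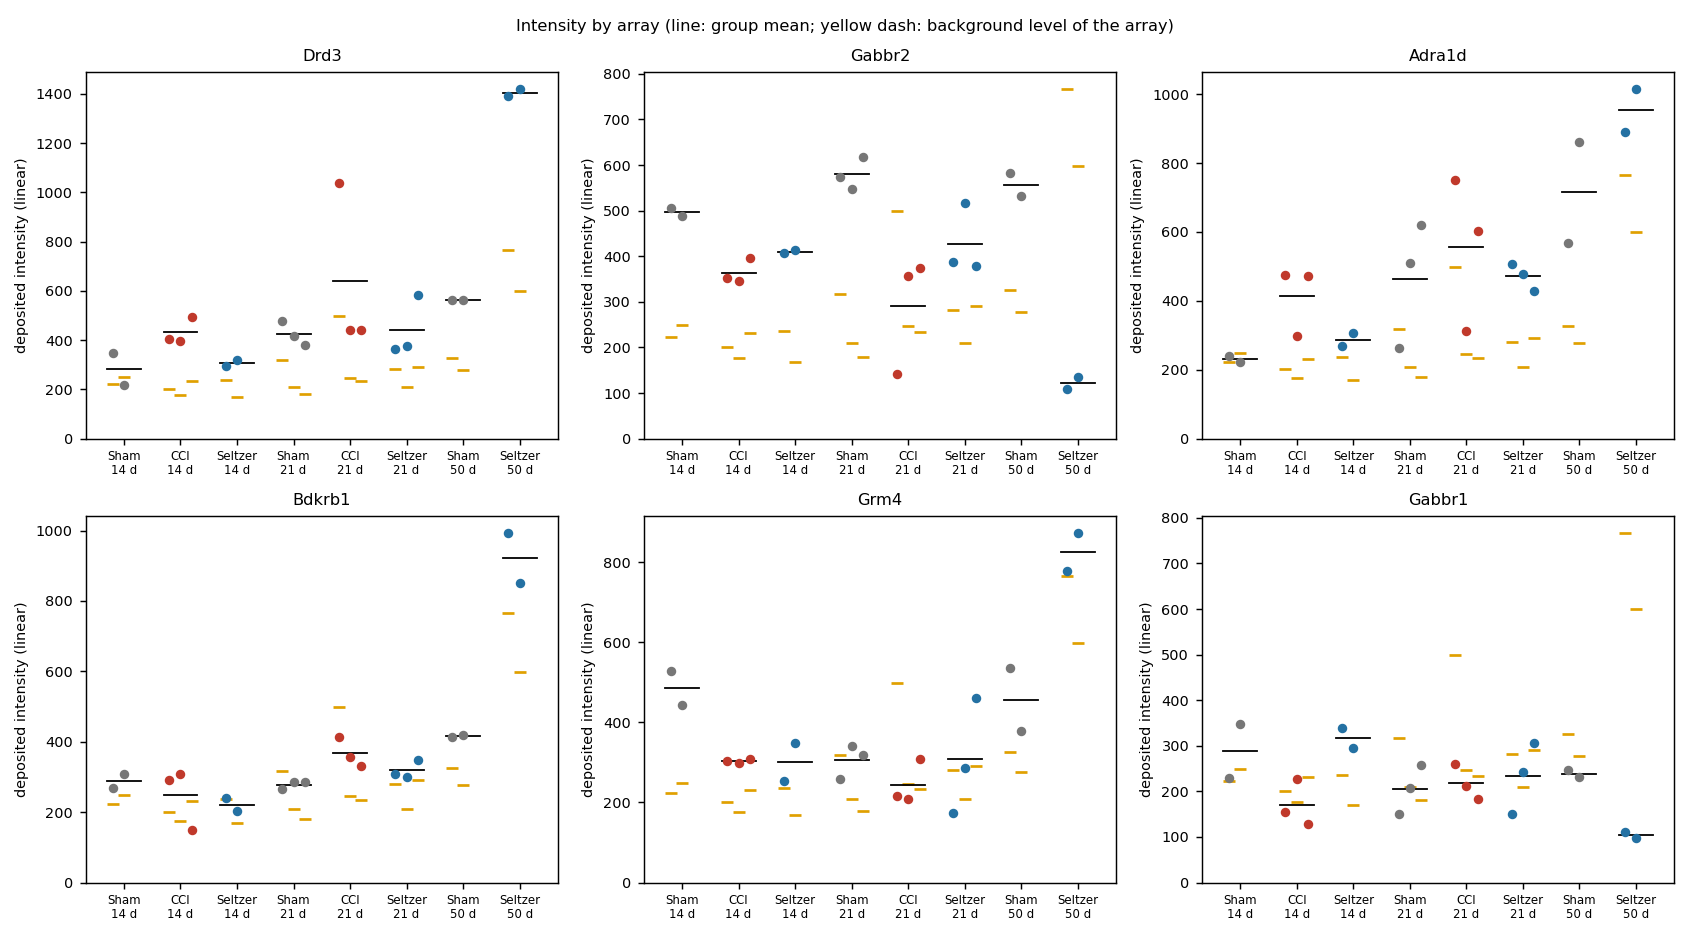
Deposited linear intensity (vertical axis) of Drd3, Gabbr2, Adra1d, Bdkrb1, Grm4 and Gabbr1 on each array, by surgery and day (horizontal axis); points are arrays, black lines group means and yellow dashes the background level of that array. Gabbr2 reads 488 to 617 on all 7 sham arrays and 141 to 396 on all 6 CCI arrays.

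The 9 receptors above background on 1 to 8 of the 18 arrays were F2r, the thrombin receptor, and Gabbr1, the GABA-B subunit that binds the ligand, on 8 arrays each, Sstr4, a somatostatin receptor, on 5, and Adra2a, Adra2b, Chrm3, Chrm4, Chrm5 and Htr6 on 1 each. Gabbr1 group means at 14 and 21 days ran from 170.3 ± 50.2 (n = 3) in CCI at 14 days to 317 ± 31.7 (n = 2) in Seltzer at 14 days, and sham at 14 days (230.1 and 348) overlapped the Seltzer arrays of that day. Sstr4 read 285 and 289.65 in sham at 14 days, 205, 213 and 146 in CCI, and 149.6 and 284 in Seltzer. All 3 CCI arrays of that day were below both sham arrays, whereas at 21 days the CCI arrays (417, 179.9 and 148) spanned the sham range of 157 to 212.

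The receptors best known from the pharmacology of pain lay mostly below background, so these arrays put no level on them. None of the 4 opioid receptor genes was above background on any of the 20 arrays. Oprm1, the mu receptor on which morphine acts, ran from -21.3 to 488 over the 20 arrays with a median of 123, and Oprd1, the delta receptor, was below 0 on all 20. Oprk1, the kappa receptor, ran from -63.6 to 50.4, and Oprl1, the nociceptin receptor, from -40.5 to 64.8. Neither the 3 CCI nor the 2 Seltzer arrays at 14 days stood apart from sham for Oprm1: CCI read 114, 118 and 82.4, Seltzer 142 and 27.2, and sham 194 and 40.1.

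Receptors for the neuropeptides of the ganglion were also not well above background. Npy1r, the neuropeptide Y receptor of small sensory neurons, read 46.1 to 359.9 over the 20 arrays with a median of 60.7. Galr1 was below 0 on 14 arrays and never exceeded 9.25, and Galr2 and Galr3 were below 0 on all 20. Tacr1, the substance P receptor, ran from -175 to 46.5, Sstr2 from -22.7 to 111, and Cckbr, a cholecystokinin receptor, from 34.8 to 440, its highest value being on CCI 21-day replicate 1. Npy2r was not analysed here.

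The amine, bradykinin, purine, glutamate and prostaglandin receptors named by rule gave a like picture. Adra2a, the target of clonidine, was above background on 1 of the 18 arrays (421 on sham 14-day replicate 2) and on the Seltzer 50-day replicate 1 array (911), with a median of 78.5 over all 20. Bdkrb2, the bradykinin B2 receptor, was below 0 on 17 of 20 arrays and Drd2 on all 20. Htr2a had a median of 36.4, Grm7 of 55.8, P2ry1 of 12.6, Chrm2 of 111 and Ptger3 of 156. Apart from Adra2a and Chrm2, which was above background on Seltzer 50-day replicate 2 alone, none of the receptors in this paragraph was above background on any array.

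CCI was compared with sham of the same day to ask which receptors change in ganglia whose nerve is constricted. In the mean of the 14-day and 21-day differences, 2 of the 78 genes passed the limma test at an adjusted p below 0.05, F2r and Ntsr2, and both fell. That is 2.56% of the receptors, beside 2.29% of all 8740 probe sets called (1.19% higher and 1.1% lower), so the share is near the background. At an unadjusted p below 0.05 there were 13 receptor genes, beside 10.7% of all probe sets. The median log2 difference of the 78 genes was 0.005, beside 0 for all probe sets, and the median standard error was 0.37. Both genes that passed encode Gq/11-coupled receptors, and 0 of 39 Gi/o and 0 of 11 Gs genes passed. The part of the muscle marker differences in these calls was not tested. Among the sensory neuron markers Scn10a and Scn11a, sodium channels of nociceptors, also fell in this comparison, by 1.06 and 1.11 on the log2 scale, while the summed level of the 11 neuron markers overlapped between CCI and sham at both days (23100 to 28700 against 18300 to 28200, and 35300 to 37600 against 26100 to 60800). Of 6 macrophage markers only Lyz2 passed, and it rose by 1.21 (adjusted p = 0.00794 in limma). Their summed level was higher in CCI than in sham on every array at 14 days (2040 to 2810 against 1380 to 1770) and at 21 days (2310 to 2930 against 1010 to 1490). Lyz2 alone read 1727 to 2513 in CCI at 14 days, and 4 of the 6 markers were above background on none of the 18 arrays outside the Seltzer 50-day group. The median log2 difference of the 6 markers was 0.11. The part of the macrophage and neuron marker differences in the receptor calls was not tested either.

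F2r encodes the receptor that thrombin activates by cutting off its N-terminal tail. At 14 days it read 503 and 353 in sham and 220.5, 117 and 153 in CCI. At 21 days it read 160.3, 199 and 208 in sham and 22.3, 74.6 and 131 in CCI. Every CCI array was below every sham array of its day, and the sham arrays read lower at 21 than at 14 days. The log2 difference was -1.33 at 14 days and -1.35 at 21 days, and their mean was -1.34 (SE 0.28, adjusted p = 0.0216 in limma). At the single days the adjusted p was 0.15 and 0.146. F2r was above background on 1 of the 6 CCI arrays and on 3 of the 5 sham arrays of these days, so no fold is given. The call was lost without CCI 14-day replicate 2 (adjusted p = 0.058), without CCI 14-day replicate 3 (0.0543), without sham 14-day replicate 1 (0.116), with arrays centred on their median (0.0787), with a fit of the compared groups alone (0.153), and with the 21-day sham arrays as the control at 14 days (0.429). Over its 21 alternatives the adjusted p ran from 0.000967 to 0.429 and the difference from -1.56 to -0.52.

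Ntsr2 encodes the low-affinity receptor of neurotensin, a peptide with pain-relieving action in the spinal cord. Its values were lower than the background level on all 20 arrays. At 14 days it read 45.2 and 80.9 in sham and -3.00, -10.6 and 12.8 in CCI, and at 21 days 67.1, 35.2 and 79.8 in sham and 10.3, -13.5 and 13.7 in CCI. No CCI array reached a sham array of its day. The mean log2 difference was -1.83 (SE 0.29, adjusted p = 0.0036 in limma), with -1.98 at 14 days (adjusted p = 0.0259) and -1.68 at 21 days (adjusted p = 0.0726). Since both groups were under background, no fold is given, and raising all values to a floor of 200 left a difference of 0. The other 20 alternatives kept the call of the mean, and all of them also set negative values to 0. Ntsr2 was set to 0 on 6 of the 20 arrays, so the size of its difference depends on the number added. The 14-day call was lost without CCI replicate 1 (adjusted p = 0.102) or 2 (0.0989), without sham replicate 1 (0.0661) or 2 (0.246), and with the compared groups alone (0.108).

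Gabbr2 had the next smallest p among the receptors and did not pass the test. It read 505 and 488 in sham and 351, 345 and 396 in CCI at 14 days, and 575, 546 and 617 in sham and 141, 357 and 375 in CCI at 21 days. The groups did not overlap at either day, and the lowest value came from CCI 21-day replicate 1. The mean log2 difference was -0.75 (SE 0.20, adjusted p = 0.0785), and it passed with a floor of 200 and when any one of the 3 CCI 21-day arrays was left out. Adra2c, the alpha2C adrenergic receptor, read 74.1 and 88.9 in sham and 17.4, 35.8 and 20.5 in CCI at 14 days, and 204, 94.7 and 91.9 in sham and -93.1, 73.0 and 46.8 in CCI at 21 days. It was below background on all arrays, and its mean difference of -1.46 (SE 0.46) had an adjusted p of 0.172.

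**Figure D3:**
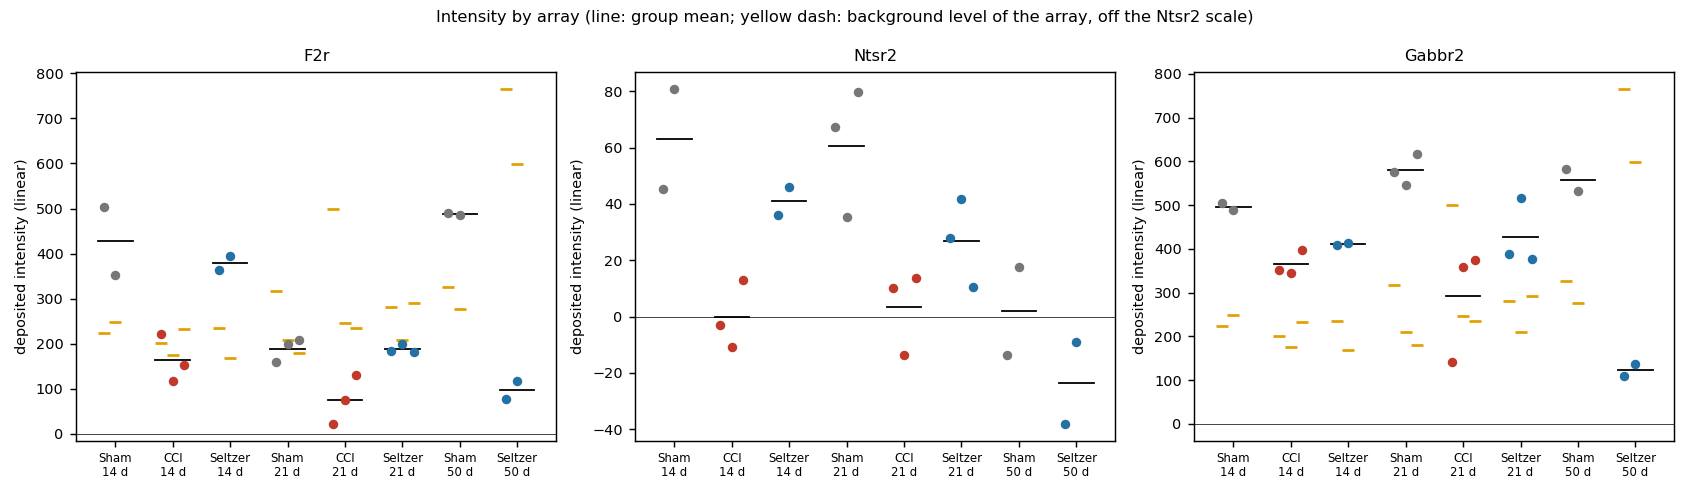
Deposited linear intensity (vertical axis) of F2r, Ntsr2 and Gabbr2 on each array, by surgery and day (horizontal axis); points are arrays, black lines group means and yellow dashes the background level of each array, which is off the Ntsr2 scale. The CCI points lie below all sham points of the same day in each panel, and Ntsr2 lies under background throughout.

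The stretch before the transcription start is shown for the 3 receptors with the smallest p in the CCI mean. The sequences are the 250 bases before each start from RefSeq for GRCr8, written 5′ to 3′ on the strand of the gene, and the capitals mark matches on either strand to the motifs searched. F2r lies on the minus strand at chr2:28620580-28620829, Ntsr2 on the plus strand at chr6:45152845-45153094 and Gabbr2 on the minus strand at chr5:66083696-66083945. The arrays measure none of these stretches.
F2r: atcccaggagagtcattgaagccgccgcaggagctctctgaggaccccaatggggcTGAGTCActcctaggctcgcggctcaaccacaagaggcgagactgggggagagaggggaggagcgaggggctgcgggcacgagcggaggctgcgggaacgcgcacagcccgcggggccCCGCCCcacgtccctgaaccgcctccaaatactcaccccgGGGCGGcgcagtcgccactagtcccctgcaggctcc
Ntsr2: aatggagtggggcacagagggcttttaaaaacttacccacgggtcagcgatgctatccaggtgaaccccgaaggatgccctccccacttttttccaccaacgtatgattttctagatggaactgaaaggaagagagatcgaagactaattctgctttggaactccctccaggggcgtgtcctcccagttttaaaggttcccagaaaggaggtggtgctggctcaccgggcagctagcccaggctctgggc
Gabbr2: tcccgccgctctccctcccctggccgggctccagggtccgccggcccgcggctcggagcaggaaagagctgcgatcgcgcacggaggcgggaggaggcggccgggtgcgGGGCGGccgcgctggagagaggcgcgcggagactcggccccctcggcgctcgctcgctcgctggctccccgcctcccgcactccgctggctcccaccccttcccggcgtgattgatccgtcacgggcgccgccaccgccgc
The F2r stretch holds 1 AP-1 site, TGANTCA, and 2 GC boxes, GGGCGG, the Gabbr2 stretch 1 GC box, and the Ntsr2 stretch none of the motifs searched. Promoters were listed for 62 of the 78 receptor genes and for 27457 genes in all, with a median GC content of 62% and 52%. The AP-1 site was present in 3.23% of the receptor stretches (F2r and Galr3) and in 6.36% of all, the cAMP response element TGACGTCA in 1.61% (Sstr2) and 1.70%, the GC box in 38.7% and 32.4%, and the TATA box TATAAA in 6.45% (Avpr1a, Avpr2, Tacr1 and Tacr3) and 13.1%. No 2 of these motifs overlapped in the 3 sequences shown.

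F2r, Ntsr2, Gabbr2 and Adra2c were the 4 genes with every CCI array below every sham array at both days, 5.13% of the receptors beside 2.14% of all probe sets. No receptor had every CCI array above every sham array at both days, where 1.35% of all probe sets did. At 14 days alone 1 receptor gene (Ntsr2) passed the limma test, beside 2.78% of all probe sets (1.35% higher and 1.43% lower), with 7 at an unadjusted p below 0.05 (10.6% of all probe sets). At 21 days alone 0 passed in limma, beside 0.927% of all probe sets (0.538% higher and 0.389% lower), with 10 at an unadjusted p below 0.05 (12.3% of all probe sets). The 14-day count was 0 without CCI replicate 1 or 2, and the 1 call was Htr2b without sham replicate 1 and Npy4r without sham replicate 2. The 21-day count was 2 without CCI replicate 1 (Bdkrb2 and Gabbr2) and 2 without CCI replicate 3 (F2r and Gabbr2), and the count for the mean was 4 without CCI 21-day replicate 1 (Bdkrb2, F2r, Gabbr2 and Ntsr2) and 1 without CCI 14-day replicate 2 or 3 (Ntsr2).

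The change of the CCI difference between 21 and 14 days was tested as an interaction. In limma 0 receptor genes passed, beside 1.8% of all probe sets (0.915% higher and 0.881% lower), with 2 at an unadjusted p below 0.05 (11.4% of all probe sets). The interaction count was 1 without CCI 21-day replicate 1 (Bdkrb2) and 1 without sham 14-day replicate 1 (Htr2b). For F2r the interaction was -0.03 and for Ntsr2 0.31 on the log2 scale. The plot of all log2 differences shows both days beside their mean.

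**Figure D4:**
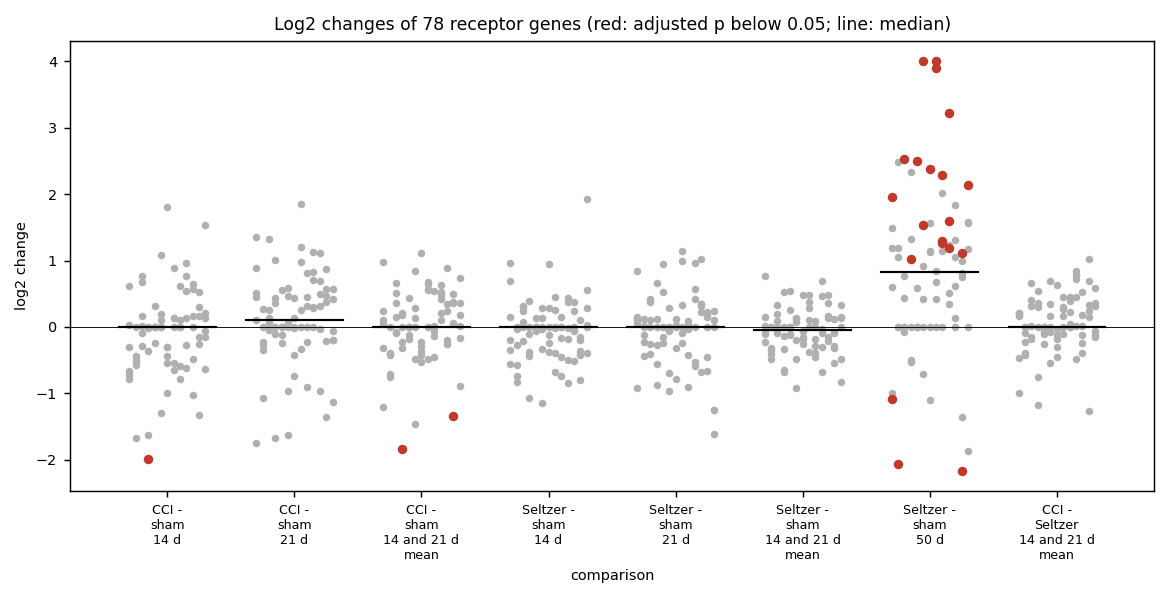
Log2 differences of the 78 receptor genes (vertical axis) in 8 comparisons (horizontal axis); each point is a gene, red points have an adjusted p below 0.05 in limma over all probe sets, and black lines are medians. The red points number 2 in the CCI mean, 1 in CCI at 14 days and 20 in Seltzer at 50 days, where the median lies at 0.83, and other columns hold none.

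The Seltzer injury was set against sham in the same way. In the mean of 14 and 21 days 0 receptor genes passed in limma, beside 0.297% of all probe sets (0.206% higher and 0.0915% lower), with 1 at an unadjusted p below 0.05 (4.77% of all probe sets). At 14 days 0 passed beside 0.206% (0.137% higher and 0.0686% lower), with 2 unadjusted (3.78% of all probe sets). At 21 days 0 passed beside 0.378% (0.263% higher and 0.114% lower), with 4 unadjusted (6.6% of all probe sets) and a smallest adjusted p of 0.516. Leaving out 1 array gave 1 call in the mean (Grm2 without Seltzer 14-day replicate 1, or Npy4r without sham 14-day replicate 2) and 1 call at 14 days (Grm2 without Seltzer replicate 1, Htr2b without sham replicate 1, or Npy4r without sham replicate 2).

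The receptors with low values after CCI were read in the same way after Seltzer surgery. F2r read 364 and 395 at 14 days and 184, 199 and 182 at 21 days, within the sham range of each day, with a mean difference of -0.07 (SE 0.29). Ntsr2 read 36.1 and 46.1 at 14 days and 27.8, 41.8 and 10.5 at 21 days, with a mean difference of -0.65 (SE 0.31, adjusted p = 1). Gabbr2 read 408 and 413 at 14 days and 387, 516 and 378 at 21 days, below all sham arrays of the same day, with a mean difference of -0.35 (SE 0.21). Adra2c, Gabbr2 and Tacr3, the neurokinin B receptor, had every Seltzer array below every sham array at both days, 3.85% of the receptors beside 1.13% of all probe sets, and 0 lay above, beside 1.34%.

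CCI was also set directly against Seltzer surgery, a comparison that uses no sham array. At 14 days the Seltzer arrays share with the sham arrays low values of 6 probe sets, described below. The part of what sets those arrays apart in this comparison was not tested. In limma 0 receptor genes passed in the mean of 14 and 21 days, beside 0.927% of all probe sets (0.481% higher and 0.446% lower in CCI), with 8 at an unadjusted p below 0.05 (8.98% of all probe sets). For F2r the log2 difference was -1.27 (SE 0.28, adjusted p = 0.055), with every CCI array below every Seltzer array of its day, and for Ntsr2 it was -1.18 (SE 0.29, adjusted p = 0.0935). F2r passed when 64 was added before the log2, with a floor of 200, and without CCI 21-day replicate 1 or 3. The count was 2 without CCI 21-day replicate 1 (Bdkrb2 and F2r), and 1 without CCI 21-day replicate 3 (F2r), Seltzer 14-day replicate 1 (Grm2) or Seltzer 21-day replicate 2 (Htr5a).

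The sham arrays differed among days for 1 receptor gene, which bears on each difference from sham. Ntsr2 passed the limma F test over 14, 21 and 50 days (adjusted p = 0.0423), beside 8.48% of all probe sets, and 10 receptor genes had an unadjusted p below 0.05 (21.2% of all probe sets). It read -13.6 and 17.4 in sham at 50 days, lower than every sham array at 14 and 21 days. The count was 0 without sham 21-day replicate 3 or sham 50-day replicate 1, and 2 without sham 14-day replicate 1 (Htr2b and Ntsr2). Without sham 14-day replicate 2 the 1 call was Npy4r, without sham 21-day replicate 1 it was Adra1d, and without the Seltzer 50-day arrays it was Adrb3. F2r read 489 and 485 in sham at 50 days against 160.3 to 208 in sham at 21 days, with an adjusted p of 0.108 over the 3 days.

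Seltzer surgery at 50 days gave the largest number of receptor calls of the comparisons made. In limma 20 of 78 genes (25.6%) passed, 17 higher and 3 lower, beside 15.9% of all probe sets (8.72% higher and 7.2% lower). The median log2 difference of the 78 genes was 0.83, beside 0 for all probe sets. For 23 of the 78 genes, 1 of several probe sets was picked by an average that includes these Seltzer arrays. The share of all probe sets involves no such choice. Both Seltzer arrays had a higher background level than the sham 50-day arrays (766 and 599 against 326 and 277), and 8.92% and 11% of their probe sets were above it, against 16.1% and 17.9%. Among the 5961 probe sets above background on none of the other 18 arrays, 7.08% passed as higher and 1.83% as lower, and among the 64 receptor genes of that kind 12 (18.8%) passed as higher and 0 as lower. In the same arrays 5 sensory neuron markers (P2rx3, Scn9a, Scn10a, Scn11a and Trpv1) were above background on neither array, against 2 (Scn9a and Trpv1) in sham at 50 days. The summed level of the neuron markers was 25700 to 27900 against 33500 to 36000 in sham. In limma 4 of the 11 neuron markers passed as lower (P2rx3, Scn11a, Uchl1 and Prph) and 0 as higher. Scn10a, with 316 and 348 against 468 and 297 in sham, overlapped. The part of the background level and of the marker differences in these calls was not tested. The count was 8 and 10 without Seltzer replicate 1 or 2, and 13 and 9 without sham replicate 1 or 2.

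By coupling, 11 of 39 Gi/o, 5 of 28 Gq/11 and 1 of 11 Gs genes passed as higher at 50 days. Of the 17, Adra2b, Bdkrb1, Chrm5, Drd3 and Sstr4 were above background on both Seltzer 50-day arrays and Chrm2 on 1, and the other 11 on neither. Folds below are ratios of geometric mean intensities, and "at least" marks those where both sham arrays were under background and that level was used in their place. Sstr4, a somatostatin receptor that inhibits sensory neurons, read 939 and 1070.4 after Seltzer surgery against 200.1 and 184.9 in sham, at least 3.34-fold higher (log2 difference 2.29, SE 0.42, adjusted p = 0.00276 in limma). Drd3 read 1389 and 1418 against 562 on both sham arrays, 2.5-fold higher (adjusted p = 0.0257). Bdkrb1 read 992 and 850.3 against 414 and 419.9, 2.2-fold higher (adjusted p = 0.00835). Both Seltzer arrays were above both sham arrays for each of these 3 genes. The Drd3 call was lost when any of the 4 arrays was left out and with the median of its probe sets, and the Bdkrb1 call without Seltzer replicate 1, with arrays centred on their median and with the median of its probe sets.

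The muscarinic receptors Chrm5 and Chrm2 and the alpha2B adrenergic receptor also read higher on both arrays. Chrm5 read 862 and 752 against 248 and 289.8, 3.01-fold higher as a ratio of the read values (adjusted p = 0.019 in limma), with sham replicate 1 under its background level. Chrm2, the M2 receptor, read 265 and 730.3 against 69.4 and 58.2 (adjusted p = 0.00833), and no fold is given because the larger value on replicate 2 alone was above background. Adra2b read 1345 and 849 against 311 and 97.1, at least 3.56-fold higher (adjusted p = 0.0427). In the 12 alternatives Adra2b lost its call in 7, Chrm5 in 6 (each of the 4 arrays left out among them) and Chrm2 in 3. Adra1d (891 and 1014 against 569 and 861) and Grm4 (778 and 873 against 536 and 378) were above background on all 4 arrays without passing.

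The other 11 genes called higher were Avpr1a, Drd1, Drd4, Grm6, Htr2a, Htr5a, Npy1r, Oprm1, Ptger3, Sstr3 and Tacr3, and no fold is given for them. Oprm1 read 488 and 408 on the Seltzer arrays against 3.00 and 28.0 in sham (log2 difference 3.997, SE 0.97, adjusted p = 0.0146), all under the background level of their arrays. Npy1r read 359.9 and 257 against 68.6 and 64.8 (adjusted p = 0.0455), and Htr2a 219.8 and 259.6 against -17.9 and -7.18 (adjusted p = 0.00131). For Avpr1a, the vasopressin V1a receptor, 17 of the 20 arrays were set to 0 and the Seltzer 50-day values were 23.4 and 21.2, so its small p rests on arrays without spread. Drd4 had 14 and Sstr3 7 arrays set to 0. Of the 20 genes, Htr2a and Sstr4 kept their call in all 12 alternatives, though a second probe set of Htr2a went the other way.

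The 3 genes called lower at 50 days were F2r and both GABA-B subunits, each subunit by its brightest probe set only. F2r read 78.2 and 118 after Seltzer surgery against 489 and 485 in sham (log2 difference -2.16, SE 0.45, adjusted p = 0.00677 in limma). Gabbr2 read 108 and 136 against 582 and 532 (-2.06, SE 0.32, adjusted p = 0.000993). Gabbr1 read 111 and 97.2 against 246 and 231 (-1.09, SE 0.32, adjusted p = 0.0385), lower than on all other arrays. These Gabbr1 values were all under the background level of their arrays. Further probe sets of Gabbr1 differed by 1.14, -0.46 and 0.93 and those of Gabbr2 by 0.66 and 1.24, none of them passing. The sham values of F2r and Gabbr2 exceed the background level of the sham arrays and lie under that of the Seltzer arrays, so the size of the fall is not bounded by a fold here. F2r lost its call without Seltzer 50-day replicate 1 (adjusted p = 0.0569) and with the compared groups alone (0.0539). Gabbr1 lost it when any of the 4 arrays was left out, with a floor of 200 and with the median of its probe sets. With that median the Gabbr2 difference turned to 1.39 (adjusted p = 0.364).

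Other probe sets of the same genes were read for agreement. Of the 78 genes 23 had several probe sets, 35 further probe sets in all, and 2 of these 35 were above background on any array, both of Gabbr1. In the comparisons above 1 of the 35 passed the limma test, the second probe set of Chrm2 at 50 days (log2 difference 1.40, adjusted p = 0.0192). The second probe set of Drd3 was above background on 0 of 20 arrays with a difference of -0.06 at 50 days, beside 1.30 for the first. The 3 further probe sets of Oprm1 differed by 0.06, 0.66 and 0 at 50 days. The second probe set of Htr2a differed by -0.94 at 50 days (adjusted p = 0.21 in limma), opposite in sign to the first. The 2 further probe sets of Drd1 differed by 0.15 and -0.92. The 2 further probe sets of Gabbr2 differed by 0.66 and 1.24 with no array above background, opposite in sign to the first, and the closest probe set of Gabbr1 by 1.14 (adjusted p = 0.101).

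Ligand precursors of the peptide receptors were read beside them, and 2 of these rose after both injuries. Of 13 measured precursors of the peptide ligands 2 passed as higher in the CCI mean and 0 as lower (Npy and Gal), and Npy and Gal also passed as the 2 calls of the Seltzer mean. Npy, the precursor of neuropeptide Y, read 24.9 and 46.1 in sham and 2563 to 2826 in CCI at 14 days, and -18.2 to 61.4 in sham and 1999 to 2636 in CCI at 21 days. Its adjusted p in limma was 1.8e-06 after CCI and 0.000144 after Seltzer surgery, and that of Gal, the precursor of galanin, was 3.89e-05 and 0.0031. Npy and Gal were under background on all 7 sham arrays, so the size of their rise depends on the number added and is not given. CCI and Seltzer differences share the sham arrays. The receptor Npy1r read 47.7 to 58.4 in CCI and 62.1 and 76.0 in sham at 14 days, and 249, 84.6 and 59.3 in CCI and 139, 56.8 and 46.4 in sham at 21 days, where the groups overlap. Npy5r, Galr1 and Galr2 had medians near or below 0 and no array above background. At 50 days 3 precursors passed as higher (Npy, Avp and Pnoc) and 1 as lower, Sst, with 1543 and 1755 in sham against -171 and 186 after Seltzer surgery, both under background. Npy at 50 days was under background on the Seltzer arrays too (231 and 202).

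**Figure D5:**
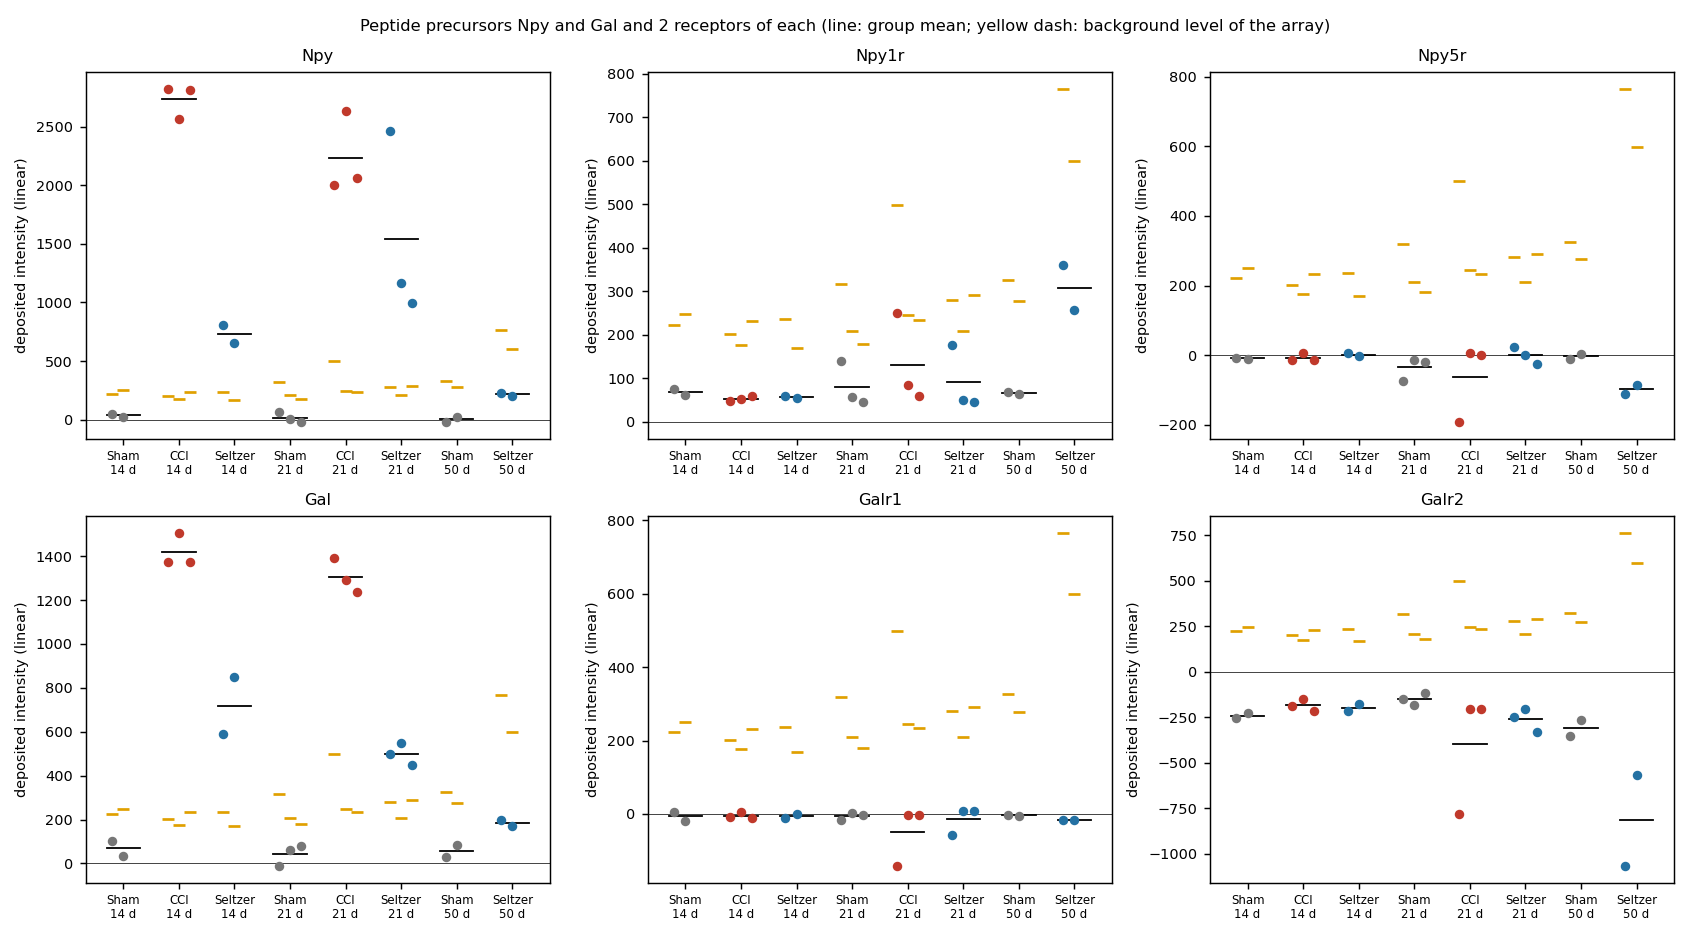
Deposited linear intensity (vertical axis) of the peptide precursors Npy and Gal and of the receptors Npy1r, Npy5r, Galr1 and Galr2 on each array, by surgery and day (horizontal axis); points are arrays, black lines group means and yellow dashes the background level of each array. The CCI arrays read 1999 to 2826 for Npy, and all receptor points lie below the background level of their array.

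Further genes of the pathway came from lists of enzymes, G proteins, regulators and effectors. Of 21 measured enzymes and transporters of amines, acetylcholine and prostaglandins 1 passed in the CCI mean, Ache, which degrades acetylcholine, and it fell by 0.56 on the log2 scale (adjusted p = 0.00441 in limma). Of 17 receptor kinases, arrestins and RGS proteins 1 passed, Rgs4, which shortens Gi/o and Gq/11 signals, and it fell by 0.98 (adjusted p = 0.00365). Of 36 effector enzymes and channels 0 passed in limma in the CCI mean. The median log2 difference in the CCI mean was 0 for the precursors, 0 for the enzymes, 0.15 for the regulators and -0.02 for the effectors, beside 0 for all probe sets. None of these last 3 lists had a member passing in the Seltzer mean. At 50 days 3 enzymes passed as higher (Ptgs2, Slc18a3 and Mme), 2 regulators (Rgs8 and Rgs14) as higher, and 3 effectors as higher and 4 as lower, beside the 15.9% of all probe sets called at that day. Of the genes named here at 50 days Ptgs2, Mme and Rgs8 were above background on none of the 20 arrays.

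Of 18 measured G protein subunits 1 passed as higher and 1 as lower in the CCI mean, with a median log2 difference of 0.04. Gnao1, the alpha subunit through which many Gi/o receptors act in neurons, fell by 1.25 (SE 0.25, adjusted p = 0.0176 in limma), with 949.7 and 864 in sham against 195 to 247 in CCI at 14 days, and 206 to 329.8 against 126 to 252 at 21 days, where the groups overlap. Sham differed among days for Gnao1 (adjusted p = 0.00505). Gnb1, a beta subunit, rose by 2.12 in the CCI mean (adjusted p = 1.56e-05 in limma) and by 4.53 at 14 days. At 21 days Gnb1 did not pass, and CCI (2213 to 3259) overlapped sham (3109 to 3491). The limma interaction was -4.82 (adjusted p = 4.03e-06). Its values set apart arrays of 2 surgeries at 1 day: Gnb1 read 60.1 to 165.5 on the 4 sham and Seltzer arrays at 14 days and 1200 to 3491 on the other 16. In all 6 probe sets (2 of Gnb1, 1 each of Marcks, Nrn1 and Abcd3, and 1 without a name) were at least 4-fold lower on those 4 arrays than on every other array, and 0 of the receptor probe sets were. What sets these 4 arrays apart was not tested. Its part in the CCI differences that use 14-day arrays, those of F2r and Ntsr2 among them, was not tested either.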

How the data were processed

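Whole rat dorsal root ganglia were hybridised to 20 Affymetrix rat expression arrays, 1 sample each. The deposited values are linear intensities as the authors gave them and some lie below 0. On all 20 arrays their mean without the top and bottom 2% was 150, and the software and scaling behind them are not stated in the labels or files. Negative values were raised to 0, and log2 was taken after adding 16. All 8740 probe sets left after 59 array controls were fitted with limma 3.58.1 (R 4.3.3) as 8 group means (12 residual degrees of freedom, two-sided moderated tests, Benjamini-Hochberg adjustment over all probe sets, threshold 0.05). Every adjusted p is from that fit or its alternatives, and the fit was tested on simulated data. The number of arrays limits the precision. Of the probe sets 7006 have 1 symbol, 308 several and 1426 none in the platform's table, with symbols updated by gene ID to RefSeq for GRCr8.

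Named were receptors past the threshold in any comparison, those above background on at least 9 of 18 arrays, and a set of receptors studied in pain. Adra2c, Adrb3, Avpr2, Oprl1, Galr3, Npy5r, Npy4r, Grm2, Htr2b, Htr6, Chrm3, Chrm4 and Adra1a fall outside that rule and were named after their values were seen, to complete a count or a family. The receptors and all gene lists were chosen with earlier results of these data known. Alternatives were 64 added, a floor of 200, quantile normalization, centring on the median, leaving out the dimmest 33.3%, only the groups compared, a replicate block, no Seltzer 50-day arrays, 21-day sham as control at 14 days, a gene's median across its probe sets, and each array left out. The labels do not say that replicate numbers pair arrays. Same-numbered Seltzer and sham arrays at 21 days deviated together (r = 0.299, 0.226 and 0.11 over probe sets), and in the other group pairs with 3 numbers the correlations were not all over 0.1. Labels of 3 CCI arrays name a lot batch equal to the replicate number without saying of what, and it was not tested.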

Additional observations from a re-analysis of the deposited data

Results flagged for a closer look

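Only the 20 receptor genes called at 50 days were searched for Seltzer differences that changed side between days. In 8 of these 20 every Seltzer array lay on 1 side of the sham mean (log2 scale) at 1 day and on the opposite side at another. These differences between days were not tested. No such count was made over all probe sets, so the 8 cannot be set beside a background share. Grm6, Htr5a, Npy1r, Ptger3 and Tacr3 were above background on none of the 20 arrays. The single arrays still overlapped with sham for Gabbr1 and Htr5a at 14 days and for Grm6 and Htr5a at 21 days. The 14-day and 50-day log2 differences were -0.36 and 1.11 for Bdkrb1, 0.15 and -1.09 for Gabbr1, -0.5 and 1.59 for Grm6, -0.02 and 1.19 for Htr5a, -0.2 and 1.95 for Npy1r, -0.38 and 1.02 for Ptger3, -0.45 and 2.29 for Sstr4, and -0.39 and 2.13 for Tacr3. Bdkrb1 and Grm6 also changed side between 14 and 21 days, with 0.18 and 0.43 at 21 days, and Htr5a and Tacr3 changed side between 21 and 50 days, with -0.59 and -1.25 at 21 days. That all 8 passed at 50 days follows from the search. The background level was 599 and 766 on the Seltzer arrays of that day, and its part was not tested.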

How the results depend on the processing

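The 50-day count of 20 receptor genes was 13 with quantile normalization and 13 with each gene's median across its probe sets, and 8 to 13 when 1 of its arrays was left out. Of these 20 genes 11 were among the 15 called with only the groups compared, 13 among the 20 called with the floor, and 13 among the 14 called with centred arrays. Gabbr2 at 50 days turned from -2.06 to 1.39 (adjusted p = 0.364 in limma) with the median over its probe sets. The CCI mean count of 2 was 1 with arrays centred on their median, with only the groups compared and with 21-day sham as the 14-day control, and 1 to 4 with 1 array left out. The 14-day CCI count of 1 was 2 with 64 added, and 0 to 1 with 1 array left out. The 21-day CCI count of 0 was 1 with 64 added, with centred arrays and with only the groups compared, and 0 to 2 with 1 array left out. Seltzer counts of 0 were 0 to 1 for the mean, 0 to 1 at 14 days and 0 at 21 days with 1 array left out. The count of 0 for CCI against Seltzer was 1 with 64 added or a floor of 200 and 0 to 2 with 1 array left out, and the CCI interaction count of 0 was 1 with the floor and 0 to 1 with 1 array left out. The sham F-test count of 1 was 2 with 64 added, the floor, quantile normalization, centred arrays, the dimmest probe sets left out, the replicate block or the median over probe sets, 6 with only the sham groups, and 0 to 2 with 1 array left out. With the replicate block the counts were 2, 1 and 0 for CCI (mean, 14 and 21 days), 0 for Seltzer at 14 and 21 days and their mean, and 19 at 50 days. The cause of these changes was not tested. Signals under background limit the comparison, since 64 of 78 receptors were never above it on 18 arrays.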
